A study of Mus musculus with 64 samples.

Results

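The immunity-related GTPases described here are *Irgm1*, *Irgm2*, *Igtp*, *Iigp1*, *Ifi47*, *Tgtp1*, *Tgtp2*, *Gm4841* and *Gm12185*, taken by symbol as 9 of the 25239 genes in the count table. The rule reads symbols alone, but the members were chosen with earlier results of these data known. Their RNA was measured in microglia sorted from single retinas of mice of genotype *Cx3cr1CreER:R26-tdTomato* +/-, kept on C57BL/6J, in which Cre is driven by *Cx3cr1* and labels long-lived *Cx3cr1*-expressing cells with tdTomato after tamoxifen eye drops and a washout. All groups, the naive ones included, carried these alleles and received tamoxifen. Females and males aged 3, 9 and 18 months were either naive or studied at day 12 or day 28 (D12, D28) after intravitreal injection of an AAV2 vector without a transgene, at 1e+10 genome copies in 2 µL per eye. By the study's methods this vector also carries an oligonucleotide sequence that inhibits TLR9, a sensor of viral DNA. No library came from a sham-injected eye, so the injection and the vector cannot be told apart. Exactly 600 tdTomato-high cells negative for the dead-cell dye DRAQ7 were sorted per retina, and 62 libraries (19 naive, 22 D12, 21 D28) in 18 groups of 2 to 4 were used. Per the study's methods the other eye of each animal went to flow cytometry or staining, so each library stands for a different animal.

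Immunity-related GTPases are interferon-inducible proteins that act against parasites and bacteria living in vacuoles inside the cell. *Irgm1*, *Irgm2* and *Igtp* (also called Irgm3) encode the regulatory, or GMS, proteins, which sit on the cell's own membranes and hold the other members inactive. *Iigp1* (Irga6), *Ifi47* (Irgd), *Tgtp1* (Irgb6), *Tgtp2*, *Gm4841* (Ifgga3) and *Gm12185* (Irgb2b1) belong to the effector, or GKS, branch, whose proteins load onto the vacuole of a pathogen and can break it. Their genes answer to interferon gamma and to type I interferon, through promoter elements known as GAS and ISRE.

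Upstream sequence was taken from RefSeq on GRCm38.p6, the assembly that mm10 names, and 7 of the 9 genes, all on chromosome 11, matched by symbol. Each window, 250 bases before and 50 after the annotated start, was searched on both strands for GAS (TTCNNNGAA, its own reverse complement) and for an ISRE-like pair of GAAA half-sites 2 bases apart (TTTC half-sites on the other strand). GAS matched in 5 of the 7 genes against 8.3% of all 32851 windows, and the ISRE-like pair in 6 of the 7 against 3.44%. In *Gm12185*, *Tgtp1*, *Tgtp2*, *Igtp* and *Irgm2* the GAS match was followed after 2 bases by the ISRE-like match. That joint motif, whose spacing was read from these genes, occurred in 5 of the 32851 windows (0.0152%), and those 5 are the windows of these genes, which are related copies. The stretches around the matches are printed 5′ to 3′ on the strand of the gene, with the matched bases in capitals, because members with the same element differed in how far their RNA moved:
Gm12185, chr11:48927234-48927284, minus strand: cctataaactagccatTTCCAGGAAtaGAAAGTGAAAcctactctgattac
Tgtp1, chr11:48992300-48992350, minus strand: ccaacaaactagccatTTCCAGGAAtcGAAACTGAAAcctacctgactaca
Tgtp2, chr11:49064259-49064309, minus strand: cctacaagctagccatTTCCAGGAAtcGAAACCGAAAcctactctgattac
Igtp, chr11:58199495-58199545, plus strand: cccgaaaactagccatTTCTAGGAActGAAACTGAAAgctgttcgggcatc
Irgm2, chr11:58214886-58214936, plus strand: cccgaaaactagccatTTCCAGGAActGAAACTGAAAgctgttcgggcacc
Irgm1, chr11:48871421-48871466, minus strand: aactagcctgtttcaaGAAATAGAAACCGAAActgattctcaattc
*Irgm1* held overlapping ISRE-like matches without GAS in its window, and the window of *Ifi47* held neither set of letters. These matches describe letters and were not tested as binding sites.

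**Figure D1:**
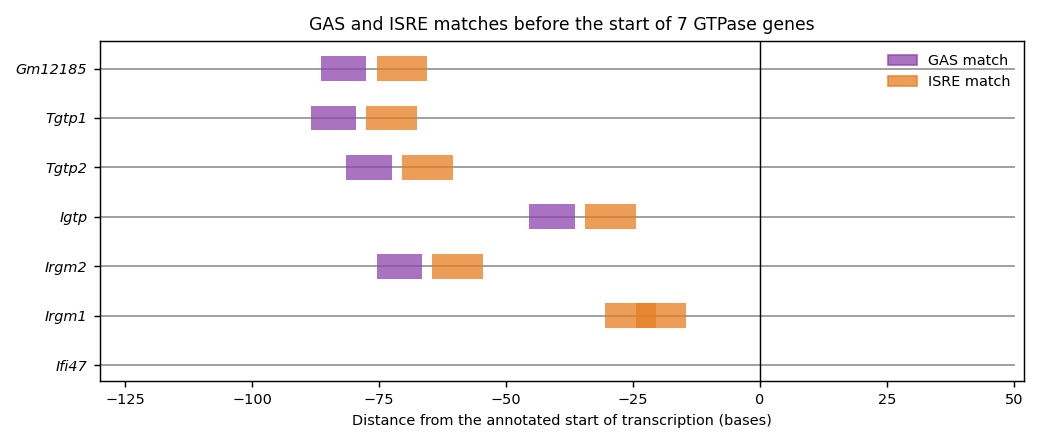
Positions of GAS and ISRE-like matches (coloured blocks) before the annotated start of transcription (0 on the horizontal axis, in bases) of 7 of the genes, 1 per row. In 5 rows the GAS match lies just before the ISRE-like match, between 88 and 25 bases upstream, *Irgm1* has ISRE-like matches alone, and *Ifi47* has none.

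The libraries held 1468478 to 9836173 counts (median 4188992), so that 3 counts corresponded to 0.365 to 2.1 CPM (the count relative to the library's TMM-scaled total). Markers of microglia were high in all libraries, with the sum of 10 markers at 33660 to 55940 CPM in naive, 10690 to 41500 CPM at D12 and 22470 to 52510 CPM at D28 libraries. The summed level of the 8 T cell markers in the table (of 10 listed) had a median of 1.27 CPM in naive (0 to 202), 137 CPM at D12 (1.57 to 476) and 81.5 CPM at D28 libraries (19.7 to 228). Monocyte-derived cell markers (6 of 6 in the table) summed to 2.32 to 126 CPM in naive, 13.6 to 1133 CPM at D12 and 2.54 to 75.5 CPM at D28 libraries. Their medians were 15.3, 210 and 14.5 CPM. Photoreceptor markers (6 of 6) had median sums of 1825, 789 and 1474 CPM on the same days. T cells and monocytes also express these GTPases, and the part of such cells in the results was not tested. In bulk libraries a change in the mix of cells and a change in RNA per cell cannot be told apart.

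Some libraries stood apart in the summed level of the 9 GTPases. Male 9-month D12 replicate 2 had 559 CPM, where the other libraries of its group had 2584 to 2811 CPM. Female 18-month D12 replicates 1 and 2 had 445 and 310 CPM, within the naive range at that age (258 to 457 CPM), whereas replicates 3 and 4 had 3902 and 2443 CPM. T cell markers summed to 1.57 and 15.3 CPM in replicates 1 and 2 and to 476 and 230 CPM in replicates 3 and 4, and the first pair was collected on the first day and the second pair on the second, so that collection day and this split cannot be told apart. Male 18-month D28 replicate 4, which the labels place at D28 in the title and D12 elsewhere, had 1316 CPM against 557 to 653 CPM in its group. Male 18-month naive replicates 2 and 4 had 202 and 108 CPM of T cell markers and 333 and 245 CPM of the GTPases. Monocyte-derived cell markers summed to 13.6 and 15.15 CPM in female 18-month D12 replicates 1 and 2 (microglial markers 41500 and 35800 CPM). In replicates 3 and 4 the sums were 231 and 1133 CPM (microglial markers 21150 and 19230 CPM). In male 9-month D12 replicate 2 monocyte-derived and microglial markers summed to 13.6 and 35950 CPM. Male 3-month D12 replicate 4, with 40.2 CPM of monocyte-derived cell markers, had 2506 CPM of the GTPases. The part of these cells was not tested.

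**Figure D2:**
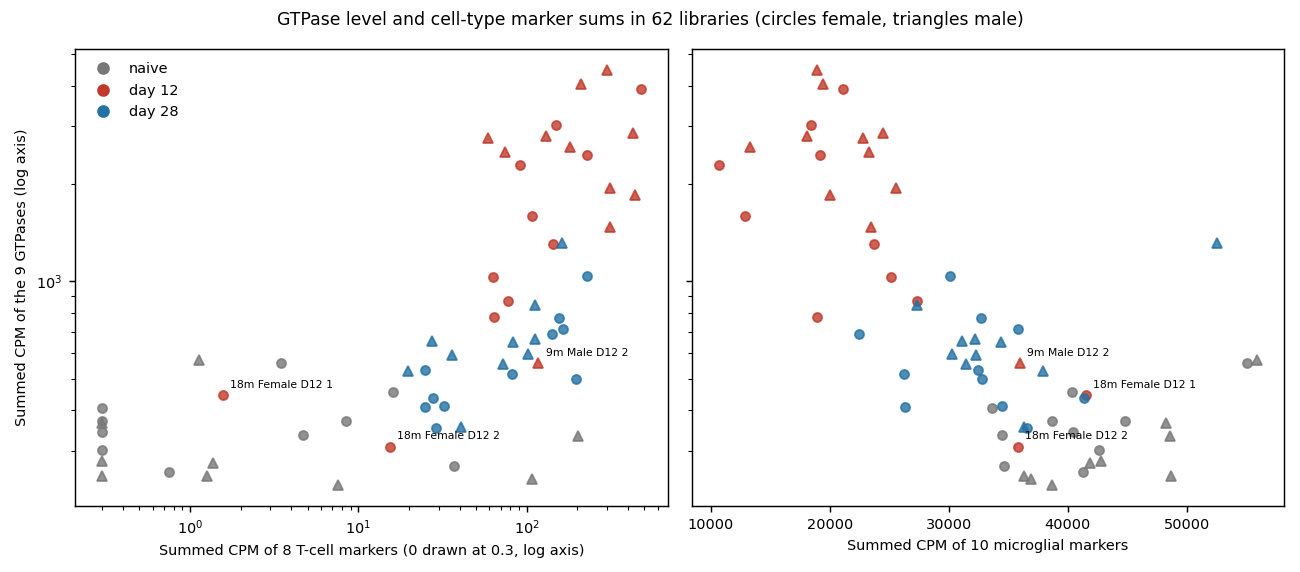
Summed CPM of the 9 GTPases in each of 62 libraries (vertical, log axis) against the summed CPM of 8 T cell markers (left, log axis, libraries at 0 drawn at its left end) and of 10 microglial markers (right), with colour for the day and circles or triangles for females or males. The 3 named D12 libraries lie at 310 to 559 CPM, among naive and D28 libraries, while the other D12 libraries lie at 775 CPM or above.

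In naive microglia the regulatory members had the highest median levels and the effector members had lower ones, with overlap between the branches. Levels of different genes are compared per kilobase of the Gencode transcript linked to RefSeq. Over the 19 naive libraries *Irgm1* had a median of 52.3 CPM per kb and *Igtp* of 49.7, with overlapping ranges (38 to 89.3 and 35.2 to 105). *Irgm2* at 13.7 and *Ifi47* at 8.65 followed. The ranges of this regulator (9.58 to 29.5) and this effector (1.57 to 36.5) overlapped as well. *Tgtp2* (median 3.29, range 0.15 to 9.28) and *Iigp1* (3.09, range 0.131 to 9.98) overlapped almost fully, *Gm4841* stood at 1.83, and *Gm12185* and *Tgtp1* at 0.246 and 0.0744. At D12 the order of the median levels per kb was *Irgm1* (265), *Iigp1* (184), *Igtp* (127), *Ifi47* (99.6), *Tgtp2* (63.5), *Irgm2* (24.4), *Gm4841* (16.9), *Tgtp1* (6.3) and *Gm12185* (3.48), and neighbours in this order overlapped between libraries. By D28 *Irgm1* and *Igtp* again had the highest medians, 97.7 and 62.4 CPM per kb. *Gm4841* and *Iigp1* are neighbours on chromosome 18, and the other 7 genes lie on chromosome 11. *Tgtp1* and *Tgtp2* are near copies: 84.8% of the 75-base windows of *Tgtp1* also occur in *Tgtp2*, so how reads were split between them is uncertain, and the other members share at most 9.5% with any transcripts of other genes.

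**Figure D3:**
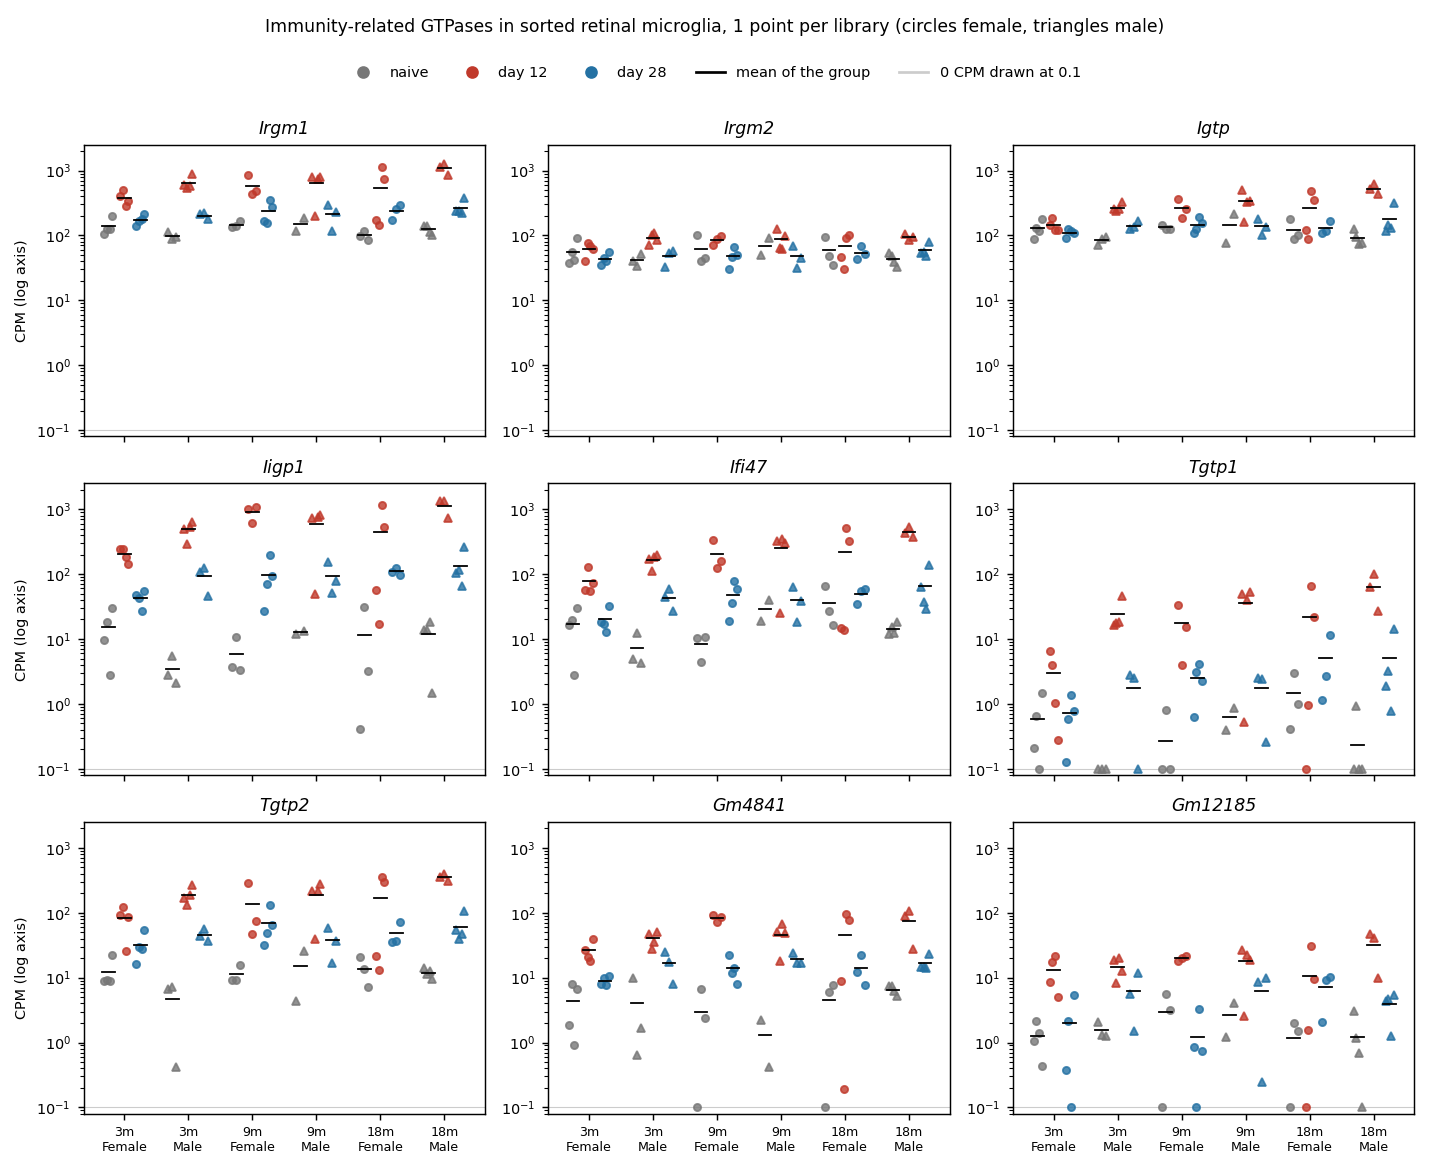
CPM of each of the 9 genes (panels, log axis) in every library, grouped by age and sex on the horizontal axis, with grey for naive, red for D12 and blue for D28, a bar at the group mean, and libraries at 0 drawn at the foot of the axis. *Irgm1*, *Igtp* and *Irgm2* lie between 33.1 and 213 CPM in naive libraries and have the smallest log2 fold changes at D12. *Iigp1* spans 0.41 to 1328 CPM.

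At D12 against naive, all 53 tests of a member (6 groups of age and sex) gave a positive log2 fold change, with *Irgm2* in 3-month-old females at -0.0037 once the uncorrected counts were fitted with the collection day, and 27 passed edgeR's test against a fold change of 2 with an adjusted p below 0.05. The median log2 fold change of the members lay between 2.36 and 4.71 in the 6 groups, that of all genes between -0.01 and 0.11. In each of the 6 groups the 3 regulators had the 3 smallest log2 fold changes of the members tested. *Iigp1* and *Gm4841* were called in 5 of 6 groups, *Tgtp2* in 4, *Irgm1*, *Ifi47* and *Tgtp1* in 3 (the last of 5 tested), *Igtp* and *Gm12185* in 2 and *Irgm2* in 0. By DESeq2 *Irgm2* had no call either, and its log2 fold changes ranged from 0.12 ± 0.27 (SE) in 3-month-old females to 1.14 ± 0.24 in 3-month-old males and 1.14 ± 0.24 in 18-month-old males.

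In 3-month-old males 8 of 9 members rose at D12, against 2.77% of all genes tested (5 members in 1 fit of all 62 libraries). Among the regulators, *Irgm1* was at 113, 86.7 and 94.1 CPM in naive libraries and at 609, 536, 588 and 879 CPM at D12. Its groups did not overlap, with a log2 fold change of 2.73 ± 0.20 (adjusted p = 1.5e-06). *Igtp* was at 71.1, 88 and 95.8 CPM in naive and at 251, 240, 258 and 327 CPM in D12 libraries, again without overlap (1.65 ± 0.18, adjusted p = 0.00776). *Irgm2* went from 40.1, 34.3 and 51.5 CPM to 72.3, 103, 110 and 84.8 CPM, values that did not overlap but did not pass a test against a fold change of 2 (adjusted p = 0.963).

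The effectors had larger log2 fold changes in these males, from lower naive CPM. On the CPM scale the order differed. The group mean of *Irgm1* went from 97.8 to 653 CPM and that of *Iigp1* from 3.43 to 492 CPM. *Iigp1* was at 2.8, 5.39 and 2.11 CPM in naive libraries and at 496, 294, 537 and 642 CPM at D12, a log2 fold change of 7.05 ± 0.44 (adjusted p = 2.15e-08). *Tgtp2* went from 6.76, 7.12 and 0.422 CPM to 168, 133, 189 and 269 CPM (5.15 ± 0.42, adjusted p = 8.74e-07). *Ifi47* went from 4.9, 12.5 and 4.22 CPM to 168, 110, 185 and 194 CPM (4.43 ± 0.38, adjusted p = 1.88e-06). Every D12 library lay above every naive library for these genes. *Tgtp1* had 0 counts in the 3 naive libraries and 16.3, 17.5, 18.1 and 46.4 CPM at D12, at least 96.2-fold higher when 3 counts over the naive group are taken as the floor (adjusted p = 0.000393). *Gm4841* (3.22 ± 0.63) and *Gm12185* (3.19 ± 0.69) rose with larger errors, from at most 10.03 and 2.1 CPM in any naive library to at least 28 and 8.28 CPM at D12.

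In 3-month-old females 3 of 8 members tested rose at D12 (background 1.67%), namely *Iigp1*, *Tgtp2* and *Gm4841*, all effectors. *Iigp1* was at 9.66, 18.4, 2.78 and 30.1 CPM in naive and at 247, 247, 185 and 143 CPM in D12 libraries, a log2 fold change of 3.72 ± 0.43 (adjusted p = 5.68e-05). *Tgtp2* went from 9.03, 9.21, 8.8 and 22 CPM to 93.8, 124, 25.8 and 84.9 CPM (2.71 ± 0.43, adjusted p = 0.00418). *Gm4841* had a log2 fold change of 2.55 ± 0.49 (adjusted p = 0.0233), *Ifi47* of 2.17 ± 0.44 (adjusted p = 0.0584) and *Gm12185* of 3.39 ± 0.86 (adjusted p = 0.0758). *Irgm1* went from 105, 127, 125 and 202 CPM to 411, 493, 280 and 344 CPM, without overlap, at 1.44 ± 0.24 (adjusted p = 0.25). *Igtp* in females overlapped between naive (89.6, 131, 119 and 176 CPM) and D12 libraries (143, 188, 121 and 122 CPM), with 0.14 ± 0.23. *Tgtp1*, at 0 to 6.52 CPM, did not pass the filter on low counts. Without naive replicate 4, the naive library with the highest *Iigp1*, 5 members were called, and in 1 fit of all 62 libraries 1 was.

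At 9 months 6 of 9 members rose in females at D12 (background 1.77%) and 2 of 9 in males (background 0.774%). In females *Iigp1* went from 3.65, 10.8 and 3.37 CPM to 993, 609 and 1088 CPM (7.21 ± 0.74, adjusted p = 0.000113). *Gm4841* went from 0, 6.61 and 2.4 CPM to 90.8, 70.8 and 85.1 CPM (4.74 ± 0.80, adjusted p = 0.00648). *Ifi47* (4.60 ± 0.57), *Tgtp1* (5.83 ± 1.27), *Tgtp2* (3.58 ± 0.67) and *Irgm1* (2.01 ± 0.35) made up the rest of the calls in females. Leaving out D12 replicate 1, which had the highest *Irgm1*, *Ifi47*, *Tgtp1* and *Tgtp2*, lowered the count to 3, as did fitting the uncorrected counts with the collection day.

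In 9-month-old males *Iigp1* stood at 12.1 and 13.2 CPM in the 2 naive libraries and at 726, 49.5, 769 and 801 CPM at D12 (5.53 ± 0.97, adjusted p = 0.0155). *Gm4841* went from 2.21 and 0.425 CPM to 49.8, 18.3, 66.6 and 49.6 CPM (5.18 ± 0.74, adjusted p = 0.00446). The low value of each set at D12 belonged to replicate 2. Without that library 6 members were called, and without naive replicate 1 or naive replicate 2 the counts were 1 and 0, in fits where the naive group is a single library assumed to vary like the other groups.

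At 18 months 8 of 9 members rose in males at D12 (background 2.86%), all but *Irgm2*. *Irgm1* went from 138, 141, 114 and 102 CPM to 1119, 1267 and 842 CPM (3.13 ± 0.25, adjusted p = 6.29e-06). *Igtp* went from 124, 93, 72.8 and 76.2 CPM to 516, 622 and 433 CPM (2.53 ± 0.32, adjusted p = 0.00105). Both regulators were above every naive library. *Iigp1* went from 13.9, 13.8, 18.4 and 1.48 CPM to 1328, 1319 and 740 CPM (6.57 ± 0.61, adjusted p = 5.79e-06), and *Ifi47* from 12, 15.3, 12.2 and 18.3 CPM to 435, 539 and 379 CPM (4.97 ± 0.44, adjusted p = 5.31e-06). *Tgtp2* (4.89 ± 0.33), *Gm4841* (3.53 ± 0.39), *Gm12185* (4.71 ± 0.75) and *Tgtp1* (7.55 ± 0.97, from 0 in 3 of 4 naive libraries) rose as well, and the count of 8 stood in all 11 fits that left out a library.

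In 18-month-old females 0 of 9 members were called at D12, where the background was 0% too. With no adjustment 5 members had p below 0.05, and DESeq2 called 0. *Iigp1* was at 0.41, 31.1 and 3.24 CPM in naive libraries and at 57.5, 17.3, 1153 and 526 CPM at D12, and *Irgm1* was at 97.9, 118 and 85.8 CPM and at 174, 146, 1118 and 732 CPM. The D12 libraries thus fell into a low and a high pair, and the log2 fold changes had large errors, 5.25 ± 1.45 for *Iigp1* and 2.47 ± 0.65 for *Irgm1*. Within the first collection day the median difference of the members on the log2 CPM scale of the uncorrected counts was -0.01, with 4 of 9 positive, and within the second day it was 2.98, with 9 of 9 positive. The only naive library of the first day was replicate 1. Its GTPases summed to 457 CPM, against 336 and 258 CPM in naive replicates 2 and 3. Its monocyte-derived cell markers summed to 126 CPM, against 15.1 and 35.6 CPM, and their part was not tested. In the other groups of age and sex 8 or 9 of the 9 members were positive at D12 on both collection days, where some groups held only 1 library on a day. Leaving out any 1 library of the age gave 0 calls, and 1 fit of all 62 libraries gave 3.

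By D28 the members were lower than at D12 in all 53 tests, and 7 of these passed. The calls were *Irgm1* and *Iigp1* in 3-month-old males (2 of 9, background of genes called lower 0.279%), *Iigp1* in 9-month-old females (1 of 9, 0.231%), and *Irgm1*, *Iigp1*, *Ifi47* and *Tgtp2* in 18-month-old males (4 of 9, 0.667%). In 18-month-old males *Iigp1* stood at 104, 115, 64.6 and 258 CPM at D28, a log2 change from D12 of -3.07 ± 0.52 (adjusted p = 0.025), and *Irgm1* at 239, 237, 224 and 376 CPM (-2.02 ± 0.24, adjusted p = 0.0149). For both genes every D28 library lay below every D12 library in these males. In 3-month-old females 0 of 8 (background 0.108%), in 9-month-old males 0 of 9 (background 0%) and in 18-month-old females 0 of 9 (background 0%) were called. With no adjustment 4, 5 and 0 members had p below 0.05 there, and DESeq2 called 0 in each. In 18-month-old females the members went up from D12 to D28 within the first collection day (9 of 9 positive, median 1.16 on the log2 scale) and down within the second (0 of 9, -2.21). The only D28 library of these females compared on the first day was replicate 2. Replicate 1, which entered no comparison, had a summed GTPase level of 4410 CPM in the uncorrected counts. The 3 other D28 libraries of these females had 520 to 667 CPM there.

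These D28 to D12 counts turned on single libraries, and the 3 counts above 0 fell to 0 in 1 fit of all 62 libraries, as did that of 18-month-old males with D28 replicate 4 placed at D12. In 3-month-old males the count was 5 without D12 replicate 2, 0 without D12 replicate 4 or D28 replicate 3, and 1 without naive replicate 1 or 2, D12 replicate 1 or 3, or D28 replicate 1 or 2. In 9-month-old females it was 3 without naive replicate 1 and 0 without naive replicate 3, any D12 library, or D28 replicate 1, 2 or 4. In 18-month-old males it was 7 without D12 replicate 3 or D28 replicate 4, 2 without D12 replicate 1 or D28 replicate 3, and 1 without D12 replicate 2 or D28 replicate 2. In 9-month-old males it was 3 without D12 replicate 2, and in 3-month-old females 1 without naive replicate 3 or 4.

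Against naive, 46 of 53 tests at D28 were positive and 6 passed, with members' medians between 0.46 and 2.2 on the log2 scale and those of all genes between -0.03 and 0.07. The naive libraries are shared by the D12 and D28 comparisons. *Iigp1* was still higher in 3-month-old males, where it stood at 107, 125 and 46.6 CPM (4.66 ± 0.43, adjusted p = 1.87e-05), in 9-month-old females at 26.9, 70.4, 199 and 95 CPM (4.01 ± 0.64, adjusted p = 0.02), and in 18-month-old males (3.50 ± 0.53, adjusted p = 0.00829). *Tgtp2* was higher in 3-month-old males at 43.4, 56.1 and 36.4 CPM (3.10 ± 0.42, adjusted p = 0.0027) and in 18-month-old males at 55, 39.1, 46.2 and 105 CPM (2.36 ± 0.29, adjusted p = 0.00605). *Ifi47* was higher in 3-month-old males (2.51 ± 0.38, adjusted p = 0.0146). All of these are effectors, and the D28 libraries named lay above every naive library of their group.

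The counts at D28 against naive were 3 of 9 in 3-month-old males (background 0.665%), 1 of 9 in 9-month-old females (0.426%) and 2 of 9 in 18-month-old males (0.553%). They were 0 of 8 in 3-month-old females (0.396%), 0 of 9 in 9-month-old males (0.12%) and 0 of 9 in 18-month-old females (0%). In the last 3 groups 1, 2 and 1 members had an unadjusted p below 0.05, and DESeq2 called 0, 1 and 0. The count in 9-month-old females fell to 0 without naive replicate 3 or D28 replicate 4, and that in 9-month-old males rose to 1 without D12 replicate 2. With male 18-month D28 replicate 4 placed at D12, as its other label has it, the 18-month male count fell from 2 to 0, and in 1 fit of all 62 libraries the counts in 3-month-old males, 9-month-old females and 18-month-old males all fell to 0. Among the regulators, *Irgm1* had log2 fold changes at D28 from 0.29 ± 0.23 in 3-month-old females to 1.26 ± 0.64 in 18-month-old females, and *Igtp* from -0.24 ± 0.23 in 3-month-old females to 0.94 ± 0.30 in 18-month-old males, none of which passed. Within the second collection day 3 of 9 members were positive in 9-month-old males, and within the first 4 of 9 in 3-month-old females. The only naive library of 9-month-old males on the second day was replicate 2.

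**Figure D4:**
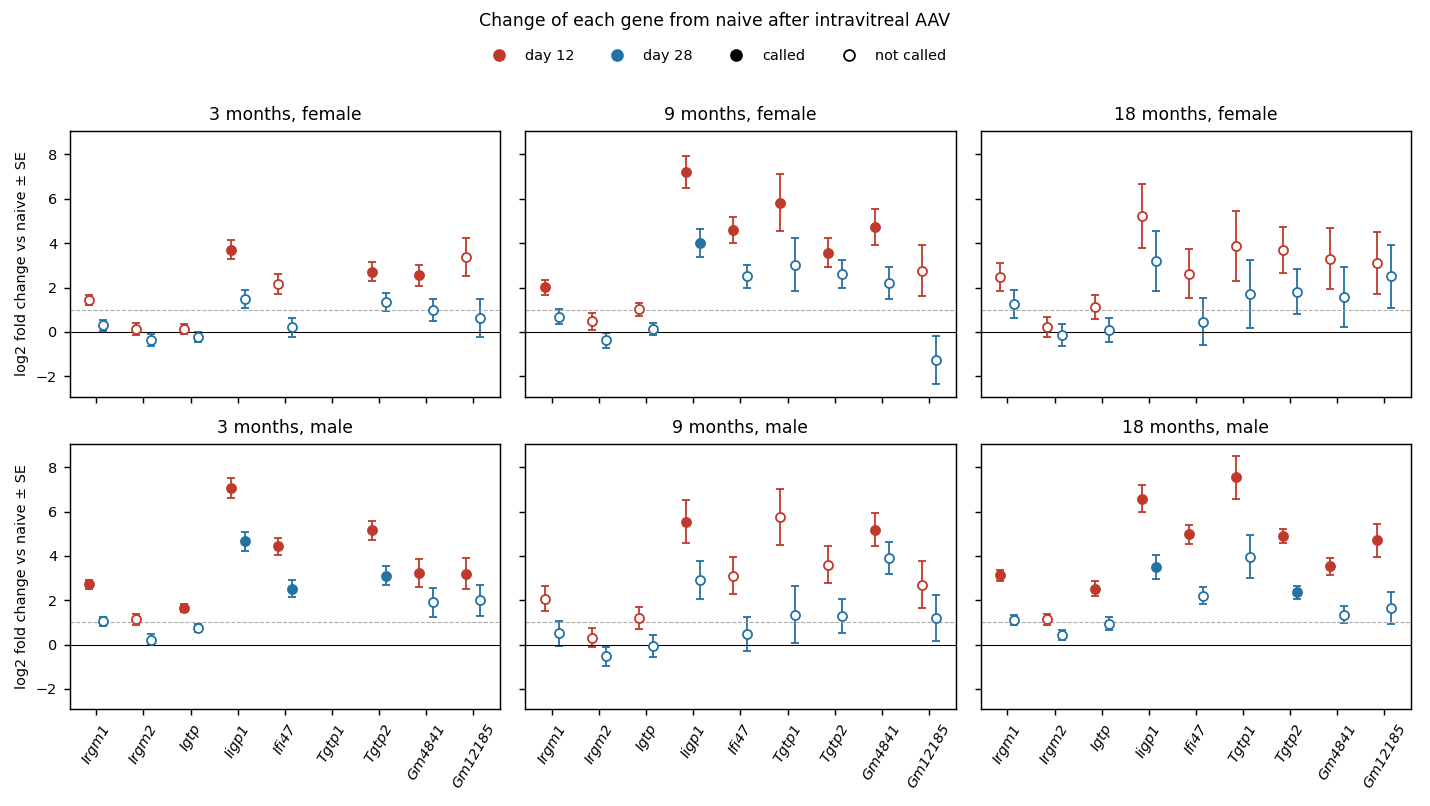
Log2 fold change from naive with its SE for each gene at D12 (red) and D28 (blue), 1 panel per age and sex, filled where the change passed the test against a fold change of 2 (dashed line). *Tgtp1* is not drawn where it was not tested or where the naive group had 0 counts. Every D12 point lies above 0, *Irgm2* is open throughout, and the 18-month female panel has no filled point.

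Whether the change from naive to D12 differed between the sexes was tested directly. At 3 months 2 of 9 members had a larger rise in males than in females at an adjusted p below 0.1, where 0.0583% of all genes did, and in 1 fit of all 62 libraries the count was 0. For *Igtp* the log2 difference was 1.51 ± 0.30 and for *Iigp1* 3.36 ± 0.65, with an adjusted p of 0.074 for both. The other members had differences from -0.20 ± 1.09 (*Gm12185*) to 2.47 ± 0.65 (*Tgtp2*, adjusted p = 0.29), with *Irgm1* at 1.29 ± 0.32 (adjusted p = 0.227), leaving aside *Tgtp1*, whose naive male libraries held 0 counts. For *Igtp* the difference was 1.54 within the first collection day and 1.75 within the second, and for *Iigp1* 3.08 and 2.96. The first day held only replicate 1 of the D12 females and of the naive males, and the second only replicate 4 of the D12 males. *Iigp1* was lower in naive males (2.11 to 5.39 CPM) than in most naive females (2.78 to 30.1 CPM), and higher in D12 males (294 to 642 CPM) than in D12 females (143 to 247 CPM). T cell markers summed to 74.4 to 439 CPM in D12 males and 62.8 to 143 CPM in D12 females, monocyte-derived cell markers to 40.2 to 454 and 16 to 65 CPM, and NK cell markers to 11.7 to 38.1 and 0.841 to 4.71 CPM. *Plac8*, 1 of the 5 monocyte-derived cell markers tested, was itself called in this interaction (6.77 ± 1.35, adjusted p = 0.074), 0 of 8 T cell and 0 of 3 NK cell markers were, and the list medians were 3.89, 2.74 and 6.88. The part of these cells in the difference was not tested.

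The calls of this interaction were fragile. Both were lost in 9 of 22 fits that left out a library: female naive replicate 4, female D12 replicates 3 and 4, each male naive library, and male D12 replicates 1, 3 and 4. A single call was left without male D12 replicate 2 or female D28 replicate 2 or 4, and the adjusted p over these fits ran from 0.019 to 0.299 for *Igtp* and from 0.0027 to 0.327 for *Iigp1*. Over the edgeR fit and the 6 other alternatives the adjusted p ran from 0.00132 to 0.872 for *Igtp* and from 5.1e-15 to 0.872 for *Iigp1*, while the log2 difference stayed between 1.44 and 1.68 and between 3.14 and 3.4. At 9 and 18 months 0 of 9 members were called in either direction (background of genes called higher 0% at each age, with 1 gene of 12364 called lower at 9 months), 0 and 2 had an unadjusted p below 0.05, and DESeq2 called 0. The 9-month difference was -1.68 ± 1.01 for *Iigp1* and 0.19 ± 0.57 for *Igtp*, and the 18-month difference was 1.36 ± 1.37 and 1.41 ± 0.64.

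Age was compared within each sex and day at an adjusted p below 0.1, and the backgrounds given are shares of genes called higher at the older age. In naive microglia 0 of 7 members tested were called between 18 and 3 months in females (background 0%) and 0 of 7 in males (background 0.139%), where 0 and 3 had an unadjusted p below 0.05, and DESeq2 called 0 in each. At D12, 9-month-old females were above 3-month-old females in 3 of 9 members (background 2.28%). *Iigp1* stood at 609 to 1088 CPM at 9 months and 143 to 247 CPM at 3 months (2.10 ± 0.30, adjusted p = 0.0018), *Gm4841* at 70.8 to 90.8 and 18.3 to 39.5 CPM (1.62 ± 0.31, adjusted p = 0.0145), and *Ifi47* at 126 to 333 and 55.1 to 130 CPM (1.35 ± 0.37, adjusted p = 0.0963). The libraries of the first 2 genes did not overlap between the ages, and all 3 calls were lost in 1 fit of all 62 libraries. Monocyte-derived cell markers summed to 281 to 518 CPM at 9 months and 16 to 65 CPM at 3 months, with 2 of 5 tested called higher (*Fn1* and *Plac8*), as was 1 of 2 NK cell markers (*Klrb1c*). Of the 10 microglial markers 3 were called lower (*Gpr34*, *P2ry12* and *Siglech*), with sums of 10690 to 18430 and 18970 to 27360 CPM, and of 8 T cell markers 0 were called. The part of these shifts in the GTPase levels was not tested. In males 0 of 9 members were called between 9 and 3 months at D12 (background 0%), none had an unadjusted p below 0.05, and DESeq2 called 0.

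Between 18 and 3 months at D12, 0 of 9 members were called in females in either direction (background 0.00961%, with 2 further genes called lower), where 1 had an unadjusted p below 0.05 and DESeq2 called 0. The median difference was -2.57 on the log2 scale within the first collection day (0 of 9 positive) and 1.54 within the second (9 of 9). The only 3-month D12 library of these females on the first day was replicate 1. In males *Ifi47* was called, at 379 to 539 CPM at 18 months and 110 to 194 CPM at 3 months (1.41 ± 0.24, adjusted p = 0.0782, 1 of 9 members against a background of 0.0652%). The male count was 7 without 18-month D12 replicate 3 and 0 without any other library of the comparison, in 1 fit of all 62 libraries, or with male 18-month D28 replicate 4 placed at D12. At D28 *Iigp1* (1.34 ± 0.23, adjusted p = 0.00596) and *Ifi47* (1.31 ± 0.30, adjusted p = 0.0538) were higher in 18- than in 3-month-old females, 2 of 8 members against 0.752% of genes, with *Iigp1* at 98.2 to 125 CPM and 27.2 to 55.7 CPM. T cell markers summed to 81.5 to 156 CPM at 18 months and 24.7 to 32.5 CPM at 3 months, with 2 of 8 called higher, *Cd3g* (2.71 ± 0.35, adjusted p = 0.000351) and *Cd3d* (2.02 ± 0.40, adjusted p = 0.0245), and *P2ry12* was called lower among the 10 microglial markers. Their part in the rise of the GTPases was not tested. The count of GTPases in females was 0 in 1 fit of all 62 libraries and 1 without 3-month replicate 1, 2 or 3 or 18-month replicate 3 or 4. In males 0 of 9 were called at D28 (background 0.00937%), 0 had an unadjusted p below 0.05, and DESeq2 called 0.

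The members differed in how closely they followed each other. Over the 62 libraries the Pearson correlation of log2 CPM with the mean of the other members was highest for *Irgm1* (0.97), then *Ifi47* and *Iigp1* (0.93 each), *Tgtp2* (0.92), *Tgtp1* (0.90), *Igtp* (0.87), *Gm4841* (0.82), *Gm12185* (0.79) and *Irgm2* (0.66). These values describe libraries that share days, groups and depth. *Igtp* and *Irgm2* are neighbours on chromosome 11 and carry the same joint GAS and ISRE-like motif printed above, and their log2 fold changes at D12 in 18-month-old males were 2.53 ± 0.32 and 1.14 ± 0.24. *Ifi47*, with neither set of letters in the window at its annotated start, had 4.97 ± 0.44 in the same males. Sequence at other possible starts was not searched, and the part of the motifs in these changes was not tested. The genes whose log2 CPM was most like the mean of the 9 were *Irf1* (Pearson 0.95, Spearman 0.96), an interferon-responsive transcription factor, *Ifi211* (0.94), the guanylate-binding proteins *Gbp7* and *Gbp4* (0.94 each), *Gm12250* (Irgb10, a further GTPase of the family, 0.93), *Fgl2* (0.93), *F830016B08Rik* (Ifgga4, 0.93) and *Gbp2* (0.93), out of 13575 genes ranked, of which 28 exceeded 0.9.

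Other GTPase families induced by interferon moved with the members. Of the 9 further immunity-related GTPase loci listed, 6 could be tested in 3-month-old males at D12 and 3 rose: *Gm4951* (Ifgga2, 3.89 ± 0.25), *F830016B08Rik* (5 ± 0.49) and *Gm12250* (2.65 ± 0.28), whereas *Gm5431* had 1.88 ± 0.69 (adjusted p = 0.529). Of 14 guanylate-binding protein, Gvin and Mx genes, 12 were tested in these males and 9 rose, with a median log2 fold change of 4.78 where that of all genes was -0.01, among them *Gbp6* (5.52 ± 0.46), *Gbp3* (4.26 ± 0.39), *Gbp2* (6.06 ± 0.60) and *Gbp8* (6.19 ± 0.67). The D12 counts of that list in the other groups were 6 of 10 in 3-month-old females, 9 of 11 and 6 of 13 in 9-month-old females and males, and 0 of 11 and 12 of 13 in 18-month-old females and males. For the further loci the D12 counts ran from 0 of 6 in 18-month-old females to 3 of 6 in 9-month-old females and in 3- and 18-month-old males, and the list medians from 1.07 in 3-month-old females to 2.55 in 9-month-old females. Of all genes tested, 1.67% and 2.77% were called higher at D12 in 3-month-old females and males. The shares were 1.77% and 0.774% at 9 months and 0% and 2.86% at 18 months, so in 18-month-old females no gene was called.

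Among genes of interferon signalling, *Irf1* (2.56 ± 0.20), *Stat2* (2.91 ± 0.29), which acts downstream of the type I receptor, and *Socs1*, a feedback inhibitor (2.17 ± 0.39), rose in 3-month-old males at D12. The receptor genes did not pass in these males: *Ifngr1* had -0.77 ± 0.19, *Ifngr2* 0.24 ± 0.16, *Ifnar1* 0.69 ± 0.23 and *Ifnar2* -0.04 ± 0.15, and *Ifng* had 3.90 ± 1.40 (adjusted p = 0.305). The ATG8 conjugation genes, whose products help load these GTPases onto vacuoles, had 1 call of 11 in 3-month-old males, *Gabarap* (1.53 ± 0.16, adjusted p = 0.0121), with a list median of 0.14, and 0 of 11 at D12 in the other 5 groups of age and sex. The shares of all genes called higher at D12 in each group are those given above.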

How the data were processed

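The authors demultiplexed reads with bcl2fastq 2.20, aligned them to mm10 with STAR 2.7.8a, per the submitters' processing notes, and counted them per gene with featureCounts. They deposited 2 tables of whole-number counts, neither scaled for depth: counts of 64 libraries, and counts of 63 libraries after ComBat_seq with the collection day as batch. Results come from 62 libraries of the second table unless the uncorrected counts are named, and 2 libraries entered no comparison.

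Here CPM were taken on TMM-scaled library sizes. Genes passing filterByExpr were fitted with edgeR 4.0.16 (R 4.3.3) quasi-likelihood models, 1 mean per group. Within age and sex, glmTreat tested days for a log2 change beyond 1 at an adjusted p (Benjamini-Hochberg, all genes tested) below 0.05, and glmQLFTest tested ages and sex interactions at an adjusted p below 0.1. SE is the log2 fold change over the square root of F. The steps were tested on simulated data. The alternatives were DESeq2 1.42.0, its size factors, no filter, uncorrected counts with the collection day, the replicate number as a block, 1 fit of all libraries, a plain test, another day for 1 library, and each library left out.

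A level at 3 counts was 0.365 to 2.1 CPM, a floor that covers counting error alone because amplified reads are not independent molecules. Among 79 pairs of libraries within a group 0 were identical. With group means removed, libraries of the same age, sex and number correlated at -0.03 (54 pairs) and others at 0.01 (159 pairs), so the numbers did not pair the libraries. Every member was named in each comparison. From the other lists the 4 genes with the smallest adjusted p in 3-month-old males at D12 were named, except in the interferon signalling list, where 1 result and the counts that hold it are not reported here, and the receptors, *Ifng* and *Gabarap* were added after their values were seen. The members and lists were chosen with earlier results of these data known.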

Additional observations from a re-analysis of the deposited data

Results flagged for a closer look

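In a group of 4 libraries, 1 library was taken as far from the rest by its gap to the nearest library. The gap had to take more of the group's range than Dixon's critical value allows, which happened in 11 of the 90 sets of levels. For a single set chance gives about 1 in 20. The sets share libraries, the genes move together and the summed level contains them. The count of 11 therefore cannot be compared with that share. Male 9-month D12 replicate 2 was low for *Irgm1* (199 CPM, the nearest library at 734), *Iigp1* (49.5 CPM, nearest 726), *Ifi47* (25 CPM, nearest 305) and the summed level (559 CPM, nearest 2580). Male 18-month D28 replicate 4, the library with 2 day labels, was high for *Irgm1* (376 CPM, nearest 239), *Igtp* (318 CPM, nearest 144), *Gm4841* (23.4 CPM, nearest 14.8) and the summed level (1320 CPM, nearest 653). The others were *Tgtp1* in male 3-month D12 replicate 4 (46.4 CPM, nearest 18.1), *Tgtp1* in male 18-month naive replicate 2 (0.917 CPM, the others at 0) and *Tgtp2* in female 3-month naive replicate 4 (22 CPM, nearest 9.21).

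The rise from naive to D12 at 3 months differed between the sexes for *Igtp* (1.51 on the log2 scale, male minus female) and *Iigp1* (3.36) in the test of the interaction at an adjusted p below 0.1. Both calls were lost in 9 of 22 fits that left out a library and in the fit of all libraries together. Over the fits that left out a library the adjusted p of the interaction reached 0.299 for *Igtp* and 0.327 for *Iigp1*.

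In the uncorrected counts, the 2 libraries outside the comparisons held more summed GTPase RNA than any of the 19 naive libraries (188 to 619 CPM). Male 9-month D28 replicate 1 had 812 CPM, where the 3 other libraries of its group had 285 to 1132 CPM. Female 18-month D28 replicate 1 had 4410 CPM, above the 520 to 667 CPM of the 3 other libraries of its group.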

How the results depend on the processing

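DESeq2 size factors in place of TMM left all 29 counts of called members within 1.5 times. With the uncorrected counts and collection day in the model 4 of 29 moved: in 9-month-old females to 3 (D12 against naive), 0 (D28 against naive) and 0 (D28 against D12), and in males to 0 (18 against 3 months, D12). DESeq2 moved 5: to 1 (D28 against D12, 3-month males), 0 (D28 against D12, 9-month females), 1 (D28 against naive, 9-month males), 5 (9 against 3 months at D12, females) and 3 (18 against 3 months at D12, males). With no filter 13 moved: to 5 and 1 in 3-month females (D12 against naive, D28 against D12), 5 in 3-month males (D28 against D12), 3 and 4 in 9-month females (D28 against naive, D28 against D12), 5, 2 and 4 in 9-month males (D12 and D28 against naive, D28 against D12), 4 and 7 in 18-month males (D28 against naive, D28 against D12), 6 (3-month interaction), 5 (9 against 3 months, D12 females) and 4 (18 against 3 months, D12 males).

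In 1 fit of 62 libraries 13 moved: to 1 in 3-month females (D12 against naive), 5, 0 and 0 in 3-month males (D12 and D28 against naive, D28 against D12), 0 and 0 in 9-month females (D28 against naive, D28 against D12), 3 in 18-month females (D12 against naive), 0 and 0 in 18-month males (D28 against naive, D28 against D12), and 0 for the 3-month interaction, 9 against 3 months at D12 in females, 18 against 3 months at D12 in males and at D28 in females. The plain test moved 9 of 18: to 6 and 3 in 3-month females (D12 against naive, D28 against D12), 5 in 3-month males (D28 against D12), 2 and 3 in 9-month females (D28 against naive, D28 against D12), 4 and 1 in 9-month males (D12 and D28 against naive), and 5 and 8 in 18-month males (D28 against naive, D28 against D12). Placing male 18-month D28 replicate 4 at D12 moved 3 of 6 to 0: D28 against naive, D28 against D12, and 18 against 3 months at D12. The cause was not tested.

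With the replicate block, which pairs libraries that share no more than a number (the pairing check is in the methods), 8 of 29 moved: to 0 (D28 against D12, 3-month males), 3, 0 and 0 (9-month females: D12 and D28 against naive, D28 against D12), 1 (D12 against naive, 9-month males), 1 (D28 against naive, 18-month males), 0 (3-month interaction) and 0 (18 against 3 months at D12, males).

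Leaving out single libraries gave counts at D12 against naive of 2 to 5 and 6 to 8 (3-month females and males), 3 to 6 and 0 to 6 (9 months), 0 and 8 (18 months). At D28 against naive they were 0 and 2 to 4, 0 to 1 and 0 to 1, 0 and 2 to 3, and for D28 against D12 0 to 1 and 0 to 5, 0 to 3 and 0 to 3, 0 and 1 to 7. The 3-month interaction gave 0 to 3, the others 0. By age the ranges were 0 to 7 (18 against 3 months, D12 males), 1 to 2 (18 against 3 months, D28 females), 2 to 3 (9 against 3 months, D12 females) and 0 for the rest.

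Signs changed for *Irgm2* in 3-month females (-0.0037 with uncorrected counts), and for *Gm12185* in the 3-month interaction (0.32). Without 1 library, *Irgm2* ran from -0.0332 to 0.45 in 3-month females, -0.0546 to 0.79 in 9-month males and -0.0621 to 0.72 in 18-month females (D12 against naive), *Igtp* from -0.0187 to 0.32 in 3-month females, and *Gm12185* from -0.60 to 0.14 in the interaction, none of them called. Low counts limit *Tgtp1* and *Gm12185*, near the floor in naive libraries. Of 162 group means of CPM, 3 moved by over 1 SD with unscaled totals and 5 with uncorrected counts.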
